A study of Mus musculus with 6 samples.

Results

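The interferon-inducible GTPases described here are 10 mouse genes of 3 families: the Mx genes Mx1 and Mx2, the guanylate-binding protein genes Gbp2, Gbp3, Gbp5 and Gbp7, and the immunity-related GTPase genes Irgm1, Irgm2, Igtp and Iigp1. They were taken by gene name from a table of counts for 54532 genes, and all 10 were among the 12972 genes with enough counts to test. The libraries come from RAW264.7 cells, a mouse macrophage line labelled as wild type, collected by fluorescence-activated sorting. In 3 libraries the cells had been cocultured for 48 h with TTJ cells, a line without Tsc2 that was derived from an angiomyolipoma of a mouse model of tuberous sclerosis complex, and in 3 libraries RAW264.7 cells had been grown alone. Both groups were kept in DMEM with fetal bovine serum, and the replicates of each group carry the letters A, B and C. Whether a letter stands for a culture of its own is not given in the labels, so each p-value weighs a difference against the variation among these libraries, which could be technical. Each line is 1 established cell population.

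These proteins are large GTPases that cells make in response to interferon, and they act inside the cell against viruses, bacteria and parasites. Mx proteins resemble dynamin and trap viral nucleocapsids. Guanylate-binding proteins (GBPs) coat bacteria and the vacuoles in which pathogens live, and immunity-related GTPases (IRGs) mark and break such vacuoles in the mouse. Mx genes answer mainly to type I and type III interferons, whereas GBP and IRG genes answer strongly to interferon gamma and also to type I interferons. In macrophages all 3 families belong to the activated, interferon-primed state.

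Total counts ran from 14329487 to 16976782 in the cocultured libraries and from 14621832 to 17358280 in the lone libraries. All 12 macrophage markers on a fixed list were measured in both groups, among them Adgre1, Cd68, Csf1r and Lyz2. Their summed level was 14270 to 14630 CPM (counts scaled to a common library size) in coculture and 13740 to 13810 CPM alone. The cocultured libraries also held transcripts of some epithelial and mesenchymal marker genes. Of 15 renal and simple epithelial markers, 11 were measured and rose, with a summed level of 384 to 445 CPM in coculture and 0.0688 to 0.300 CPM alone. Cdh16 reached 122 ± 12.2 CPM, Krt8 91.8 ± 8.36 CPM and Cdh1 43.2 ± 2.27 CPM in coculture (SD, n = 3), and all 3 genes had 0 counts alone, which makes them at least 1987-fold, 1488-fold and 697-fold higher against 3 counts over the lone group. Epcam, Cldn7 and Lhx1 had 0 counts in coculture. Of 12 mesenchymal markers 4 were measured and 3 rose, at summed levels of 59.7 to 64.3 CPM in coculture and 1.79 to 1.93 CPM alone. The 3 were Timp3 with 17.9 ± 2.45 CPM, Col5a1 with 25.6 ± 0.126 CPM and Cav1 with 15.2 ± 0.566 CPM in coculture, against 0, 1 and 1 counts in total alone. The epithelial and mesenchymal genes that rose passed the filter on low counts because of their cocultured level alone, which fixed their direction. Some mesenchymal markers that did not rise are named after their values were seen. Acta2 was measured and was called neither higher nor lower. Col1a1 and Col1a2 had 3 and 1 counts over the cocultured libraries, and Col3a1 had 0. A set of 688 genes, silent in lone cells and holding 10 or more counts after coculture, took 0.294% ± 0.0172 of the cocultured counts (SD, n = 3). What part RNA of other cells has in the GTPase results below was not tested. All 10 GTPases had counts in every lone library, 7 at the least.

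The promoters show what the GTPase genes share in sequence. RefSeq promoter windows on GRCm38.p6, from 250 bases before to 50 bases after each start site, were matched for 7 of the 10 genes: Gbp2, Gbp3, Gbp5, Gbp7, Irgm1, Irgm2 and Igtp. Every one of the 7 genes held the core of the interferon-stimulated response element, searched on both strands as GAAA, any 2 bases (NN) and GAAA again. This element is bound by interferon regulatory factors. The same core stood in 3.99% of 27025 genes with a window and in 3.96% of 9415 tested genes with one. Other interferon-inducible GTPases had it in 7 of 11 genes with a window, and dynamin-superfamily GTPases that are not interferon genes in 0 of 13. The stretches around the core are printed in the direction of transcription to show how close the copies are in sequence and in distance from the start site, with the core in capitals (TTTC, NN and TTTC where it lies on the other strand).
Gbp2, chr3:142620579-142620638, plus strand: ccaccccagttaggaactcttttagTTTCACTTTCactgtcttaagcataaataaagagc
Gbp3, chr3:142559974-142560039, plus strand: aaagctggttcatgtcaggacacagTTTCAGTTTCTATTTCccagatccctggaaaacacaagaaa
Gbp5, chr3:142496744-142496803, plus strand: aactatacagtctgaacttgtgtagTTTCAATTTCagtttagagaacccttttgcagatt
Gbp7, chr3:142530258-142530317, plus strand: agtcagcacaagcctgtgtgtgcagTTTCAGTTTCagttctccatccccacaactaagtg
Irgm1, chr11:48871421-48871475, minus strand: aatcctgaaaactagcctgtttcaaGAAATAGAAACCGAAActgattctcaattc
Igtp, chr11:58199497-58199555, plus strand: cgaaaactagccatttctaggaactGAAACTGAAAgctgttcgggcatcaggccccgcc
Irgm2, chr11:58214888-58214947, plus strand: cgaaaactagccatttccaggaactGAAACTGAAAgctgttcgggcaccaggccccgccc

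In Irgm1 and Gbp3 a pair of cores overlapped by 4 bases. Gbp3 has a further window at a start site downstream, and that window had no core. The first base of the core lay 30 bases upstream of the start in Irgm1, 34 in Igtp, 45 in Gbp3, 53 in Gbp7, 59 in Gbp2 and 64 in Irgm2. In Gbp5 it lay 165 bases upstream, the farthest of the 7. These distances refer to RefSeq start sites, which for Irgm2 and Gbp5 lie well inside the deposited gene spans. Aligned over 264 bases, the windows of Igtp and Irgm2 were 93.6% identical. The second interferon element, the gamma-activated site, was searched as TTCNNNGAA, which reads the same on both strands. It stood in the windows of Gbp5, Gbp7, Igtp and Irgm2, which is 4 of 7 genes, against 9.55% of all genes with a window. A letter match describes a sequence and does not show that a factor binds there. The whole upstream stretches of Gbp7 and Gbp5 are shown because these neighbours hold the same motifs, in capitals for both elements, and differ in the calls given below.
Gbp7, chr3:142530086-142530335, plus strand: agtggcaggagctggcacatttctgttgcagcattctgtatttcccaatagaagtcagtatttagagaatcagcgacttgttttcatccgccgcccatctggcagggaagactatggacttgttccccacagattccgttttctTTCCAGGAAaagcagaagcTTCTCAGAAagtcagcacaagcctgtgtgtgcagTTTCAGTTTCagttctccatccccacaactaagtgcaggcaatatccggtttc
Gbp5, chr3:142496684-142496933, plus strand: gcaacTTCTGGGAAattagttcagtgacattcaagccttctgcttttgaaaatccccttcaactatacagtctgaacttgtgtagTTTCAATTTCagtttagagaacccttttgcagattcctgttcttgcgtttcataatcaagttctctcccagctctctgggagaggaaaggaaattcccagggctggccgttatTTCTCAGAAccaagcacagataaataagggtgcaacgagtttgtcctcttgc

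The comparison of cocultured with lone cells is set in the question of how Tsc2-null cells act on the polarization of macrophages. Polarization itself was not measured. The 6 libraries hold no coculture with cells that have Tsc2, so loss of Tsc2 cannot be told apart from coculture itself. Of the 10 GTPase genes, 9 rose in coculture, 0 fell, and Gbp5 did not pass the threshold (edgeR quasi-likelihood test, Benjamini-Hochberg adjusted p under 0.05 over all genes). Over all 12972 genes tested, 21.7% were higher and 15.2% lower by the same rule, 36.9% in either direction. Of the 10 genes, 9 had a mean of at least 1 CPM alone and 8 of these rose, where 16.8% of all genes of that level were higher and 17.2% lower. Iigp1 passed the filter on low counts (10 counts at the median depth, 0.618 CPM) through the cocultured libraries only, so a rise was the only call open to it. The groups did not overlap for the same 9 genes, against 26.1% of all genes tested with every cocultured library above every lone one. The median log2 fold change was 0.90 over the 10 genes and 0.0029 over all genes tested. In a fit of genes with at least 1 CPM alone, which leaves out Iigp1, these medians were 0.76 and -0.0039. Of the 9 genes that rose, 5 rose at least 2-fold (Iigp1, Mx1, Gbp3, Gbp7 and Gbp2), a size and call that 9.34% of all genes reached. In bulk RNA more cells with a transcript and more transcript per cell cannot be told apart.

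**Figure D1:**
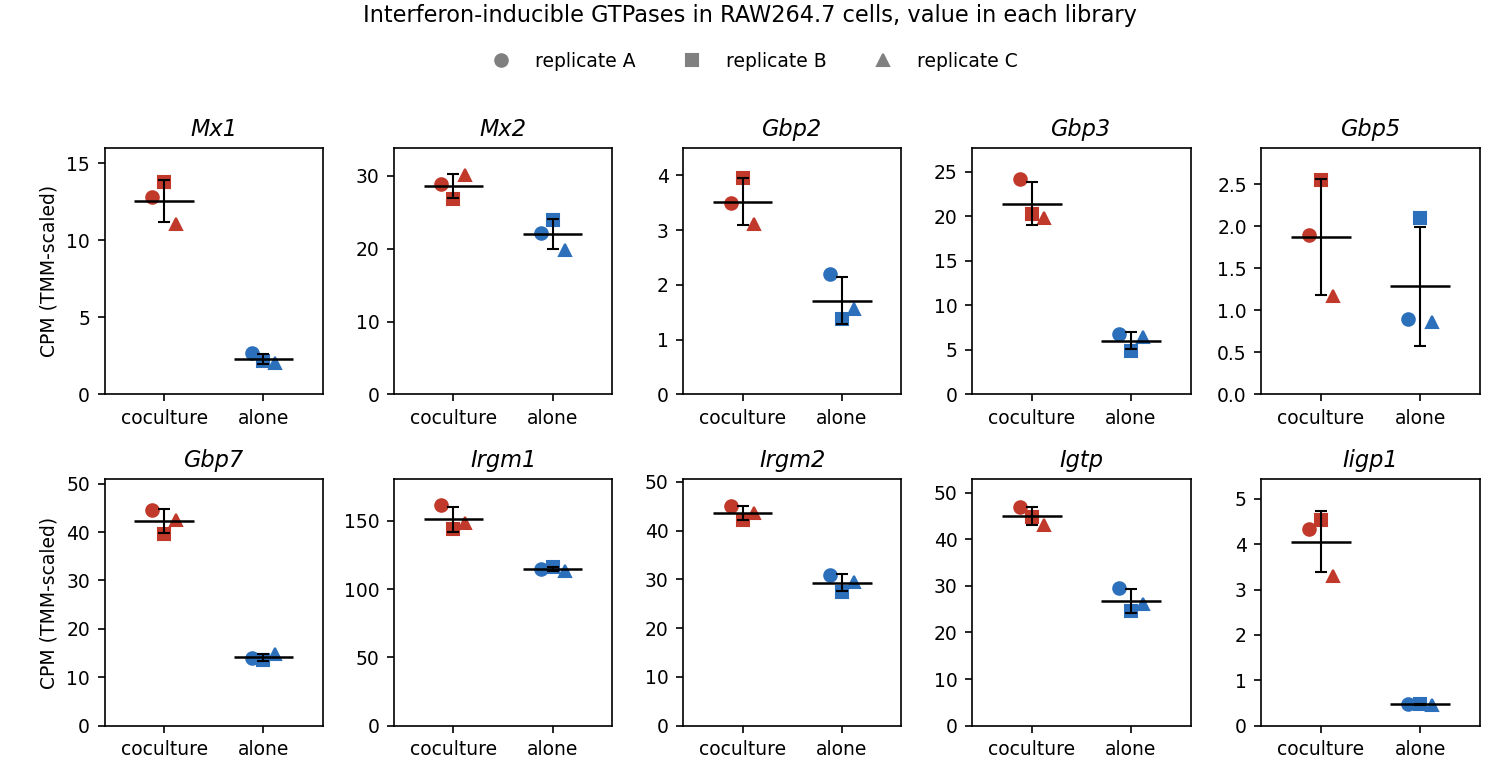
Level of each GTPase gene in CPM (vertical axes, each from 0) in the 3 cocultured and 3 lone libraries, with the replicate letter as the marker, a line at the mean and bars of 1 SD. The groups are apart for 9 genes and overlap for Gbp5, where replicate B is the highest library of each group.

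Mx1 encodes a GTPase that acts in the nucleus of mouse cells against influenza-like viruses. Its gene is on the minus strand of chromosome 16 (97447035 to 97462907 on mm10, ENSMUSG00000000386). Mx1 had 12.8, 13.8 and 11.0 CPM in cocultured replicates A, B and C and 2.68, 2.16 and 2.07 CPM alone. Every cocultured library was far above every lone one. The rise was 5.46-fold (log2 2.45, SE 0.174, adjusted p = 1.44e-11). Many inbred mouse strains carry disrupted alleles of Mx1 and Mx2, so a transcript level says nothing of a working protein here.

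Mx2 encodes the cytoplasmic relative of Mx1 and lies next to it (chromosome 16, 97535308 to 97560900, plus strand, ENSMUSG00000023341), and the deposited table classes it as a polymorphic pseudogene, the only GTPase of the 10 that is not called protein-coding there. Mx2 had 28.9, 26.9 and 30.1 CPM in coculture, against 22.2, 24.0 and 19.8 CPM alone. The groups came close without overlapping, and the rise was 1.30-fold (log2 0.38, SE 0.0908, adjusted p = 0.00162). The 95% intervals of the log2 fold change, 2.09 to 2.81 for Mx1 and 0.19 to 0.57 for Mx2, did not overlap. Within libraries, the ratio of Mx1 to Mx2 counts was 0.444, 0.513 and 0.367 in coculture and 0.121, 0.0900 and 0.105 alone. That ratio did not overlap between the groups, and it was not tested, since with 3 libraries a side the smallest two-sided p an exact permutation can give is 0.1.

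The 4 GBP genes on the list lie in 1 cluster on the plus strand of chromosome 3. Gbp7 (142530342 to 142550149, ENSMUSG00000040253) had the highest CPM of them, which is not scaled by gene length. Its protein has been tied to the phagocyte oxidase and to autophagic killing of bacteria in mouse macrophages. Gbp7 had 44.5, 39.6 and 42.5 CPM in coculture and 13.9, 13.5 and 14.9 CPM alone. It rose 2.99-fold with the smallest standard error of the 4 (log2 1.58, SE 0.0865, adjusted p = 8.28e-14). Gbp3 (142560026 to 142573209, ENSMUSG00000028268), the next gene of the cluster, had 24.2, 20.3 and 19.7 CPM in coculture and 6.81, 4.92 and 6.397 CPM alone. It rose 3.54-fold (log2 1.83, SE 0.135, adjusted p = 3.02e-11), the largest rise among the GBP genes of this list. In both genes the lowest cocultured library was well above the highest lone one.

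Gbp2 (142620602 to 142638008, ENSMUSG00000028270) encodes a prenylated GBP that gathers on the vacuole of Toxoplasma in mouse cells. It had 3.50, 3.96 and 3.11 CPM in coculture and 2.20, 1.38 and 1.56 CPM alone, from 23 to 62 counts per library. Gbp2 rose 2.07-fold (log2 1.05, SE 0.264, adjusted p = 0.00252). Gbp5 (142493978 to 142522344, ENSMUSG00000105504), another prenylated GBP, linked to inflammasome assembly, was the least abundant of the 10 in coculture. It had 27, 40 and 20 counts or 1.89, 2.55 and 1.18 CPM in coculture and 13, 35 and 15 counts or 0.894, 2.10 and 0.864 CPM alone. Replicate B was the highest library of both groups, and the groups overlapped. The log2 fold change of Gbp5 was 0.52 with a 95% interval of -0.25 to 1.30 (adjusted p = 0.297), so no difference was detectable at this depth, and a rise as large as that of Gbp2 was within the interval. Without lone replicate B the value was 1.07 (adjusted p = 0.0569) and without cocultured replicate B 0.23 (adjusted p = 0.747).

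The IRG genes Irgm1, Irgm2 and Igtp encode regulators that sit on the cell's own membranes and keep the effector IRGs inactive there. Irgm1 (chromosome 11, 48861968 to 48871683, minus strand, ENSMUSG00000046879) was the most abundant GTPase of the 10. It had 162, 144 and 148 CPM in coculture and 115, 116 and 113 CPM alone. The SD was 9.32 CPM in coculture and 1.75 CPM alone. The rise of 1.32-fold (log2 0.40, SE 0.0503, adjusted p = 4.82e-07), a difference of 36.4 CPM, was small but larger than both spreads.

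Igtp, which encodes Irgm3, and Irgm2 lie on the plus strand of chromosome 11 and begin close together in the deposited coordinates (58199556 to 58207591, ENSMUSG00000078853, and 58199618 to 58222782, ENSMUSG00000069874). Their annotations overlap on the same strand, so reads in shared exons could not be told apart, and both levels are uncertain to that extent. The RefSeq promoter window of Irgm2 read above lies at 58214727 to 58215026, past the end of Igtp. Igtp had 46.9, 44.8 and 43.0 CPM in coculture and 29.6, 24.6 and 26.2 CPM alone, a rise of 1.68-fold (log2 0.75, SE 0.0785, adjusted p = 2.06e-08). Irgm2 had 45.03, 42.3 and 43.5 CPM in coculture and 30.9, 27.5 and 29.4 CPM alone, a rise of 1.49-fold (log2 0.57, SE 0.0734, adjusted p = 5.46e-07). Both genes were apart between the groups in every library. The ratio of Igtp to Irgm2 counts was 1.04, 1.06 and 0.989 in coculture and 0.956, 0.895 and 0.889 alone, close to 1 throughout.

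Iigp1 (chromosome 18, 60376029 to 60392627, plus strand, ENSMUSG00000054072) encodes an effector IRG, also called Irga6, that binds the vacuole of Toxoplasma and takes part in its rupture. It had 62, 71 and 56 counts in coculture and 7, 8 and 8 counts alone. These were 4.34, 4.53 and 3.29 CPM in coculture and 0.481, 0.480 and 0.461 CPM alone. The fitted change of Iigp1 was 8.42-fold (log2 3.07, SE 0.321, 95% interval 2.41 to 3.73). It is given as a description, since the lone libraries lay below the filter limit of 0.618 CPM and a fall could not have been called.

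Levels can be compared between genes only after scaling by length. The FPKM values (fragments scaled by gene length and library depth, made by the authors) put Irgm1 first in both groups, with 26.0 ± 1.57 in coculture and 19.7 ± 0.284 alone (SD, n = 3). Igtp followed with 22.2 ± 0.957 FPKM in coculture and 13.2 ± 1.27 FPKM alone, and Irgm2 with 11.8 ± 0.362 FPKM in coculture and 7.92 ± 0.482 FPKM alone. Mx2, at 7.90 ± 0.440 FPKM, Gbp7, at 7.50 ± 0.434, and Gbp3, at 6.54 ± 0.730, were next in coculture, and these neighbours did not differ beyond their spread. Alone the same 3 genes were well apart, at 6.07 ± 0.571 FPKM for Mx2, 2.50 ± 0.127 for Gbp7 and 1.85 ± 0.306 for Gbp3. At the low end, Mx1 had 3.31 ± 0.369 FPKM in coculture, above Gbp2 with 1.40 ± 0.169 and Iigp1 with 1.30 ± 0.215, which lay within their spread of each other. Alone, Gbp2 at 0.679 ± 0.172 FPKM and Mx1 at 0.608 ± 0.0873 FPKM did not differ beyond their spread, and neither did Gbp5 at 0.193 ± 0.106 and Iigp1 at 0.152 ± 0.00359. Gbp5 was last in coculture with 0.282 ± 0.104 FPKM.

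**Figure D2:**
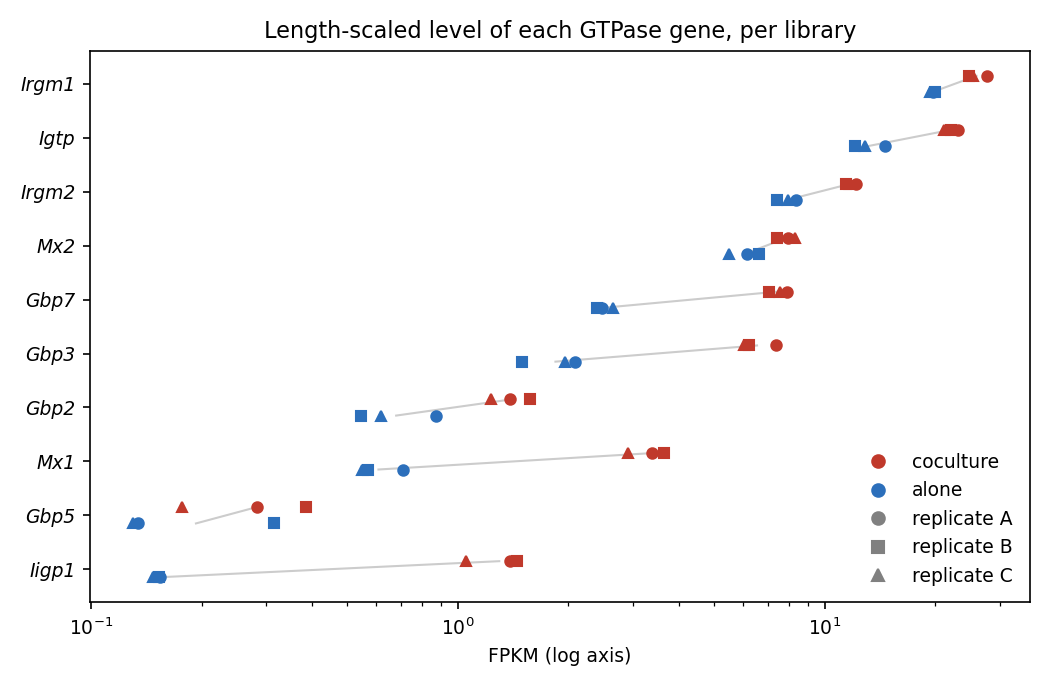
FPKM of each GTPase gene in every library on a log axis, genes ordered by their mean alone, cocultured libraries drawn above lone ones and grey lines joining the group means. The group means lie farthest apart for the low genes Iigp1 and Mx1, and close together for Mx2 (7.90 in coculture, 6.07 alone) and Irgm1 (26.0 in coculture, 19.7 alone).

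By family, the summed level of the 4 GBP genes was 14.999 to 16.97 FPKM in coculture and 4.76 to 5.56 FPKM alone. The 2 Mx genes together had 11.1 to 11.3 FPKM in coculture and 6.02 to 7.18 FPKM alone. The sum of these 4 GBP genes was thus above the Mx sum in every cocultured library and below it in every lone one. That order holds for the listed genes only. Other GBP genes were left out of the sum, such as Gbp9 with 7.97 ± 0.220 FPKM in coculture and 2.47 ± 0.205 FPKM alone. The 4 IRG genes together had 59.5 to 64.4 FPKM in coculture and 39.6 to 42.9 FPKM alone, far above both. The ratio of mean summed CPM, coculture over alone, was 2.98 for GBP, 1.69 for Mx and 1.42 for IRG genes. Irgm1 alone made up 29.4% ± 0.627 of the summed FPKM of the 10 genes in coculture and 37.3% ± 1.51 alone. Gbp7 made up 8.51% ± 0.313 of it in coculture and 4.74% ± 0.327 alone, and Igtp kept a like share, 25.2% ± 0.514 in coculture and 24.95% ± 1.47 alone. These shares and ratios were not tested, since 3 libraries against 3 cannot pass the threshold in an exact permutation test.

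The rest of the same families was read from a list of 25 further genes, of which 24 were in the table and 19 were measured. Of the 19, 13 had at least 1 CPM alone, and of these 10 rose and 1 fell, against 16.8% and 17.2% of all genes of that level. Over all 19 the counts were 15 and 1. Of these, Tgtp1, Gbp4, Gbp6 and F830016B08Rik (named after its values were seen) passed the filter through the cocultured libraries only. A rise was the only call open to these genes. Gm1966, also named after its values were seen, reached the filter limit in 3 cocultured libraries and 1 lone one. Its pass thus rested on its cocultured level too. Of the 14 genes at the limit in every lone library, 10 rose and 1 fell. Tgtp1 is an effector IRG gene, Gbp4 and Gbp6 lie in the GBP cluster on chromosome 5, and their values are given as a description. Tgtp1 had 21, 23 and 20 counts in coculture and 0, 0 and 1 alone, 66.2 times as much per unit of depth (exact 95% interval 11.5 to 2655 for the counting error). The fitted log2 change was 5.60, and 7.43 without lone replicate C, which holds the 1 count. It has a near-identical neighbour, Tgtp2, so its reads are uncertain. Gbp4 had 81, 126 and 124 counts in coculture and 5, 5 and 1 alone (29.9-fold, log2 4.90, SE 0.349). The annotations of Gbp4, Gbp8 and Gbp9 overlap on the same strand, so their levels are uncertain to that extent. Gbp6 had 42, 40 and 36 counts in coculture and 2, 7 and 0 alone (13.1-fold, log2 3.71, SE 0.509), and the log2 change was 5.16 without lone replicate B and 3.10 without lone replicate C.

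Some further genes of these families were chosen after their values were seen. Gbp9, also on chromosome 5, was at 41.3 ± 1.196 CPM in coculture and 12.8 ± 1.08 CPM alone (3.21-fold, adjusted p = 3.69e-14). Its span overlaps those of Gbp4 and Gbp8, as given above. Gvin1, a very large interferon-inducible GTPase gene, was at 12.9 ± 0.861 CPM in coculture and 2.67 ± 0.0521 CPM alone (4.80-fold, adjusted p = 1.19e-11). Gbp2b stands between Gbp3 and Gbp2 in the chromosome 3 cluster and had 12, 16 and 13 counts in coculture and 22, 21 and 23 alone. Its groups did not overlap in the direction opposite to its neighbours, but the difference did not pass the threshold (log2 -0.64, SE 0.354, adjusted p = 0.171). The 1 gene that fell was Irgq, an IRG-related gene that is not known as interferon-inducible, with 21.01 ± 0.933 CPM in coculture and 24.99 ± 1.11 CPM alone (1.19-fold lower, adjusted p = 0.0290). That call was lost without lone replicate B (adjusted p = 0.0637) or C (0.0918) and without cocultured replicate A (0.0975) or B (0.0523), and in both FPKM fits with all genes (0.0523 and 0.0561). The genes of the list that were too low to test had 27 counts over the cocultured libraries at the most.

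**Figure D3:**
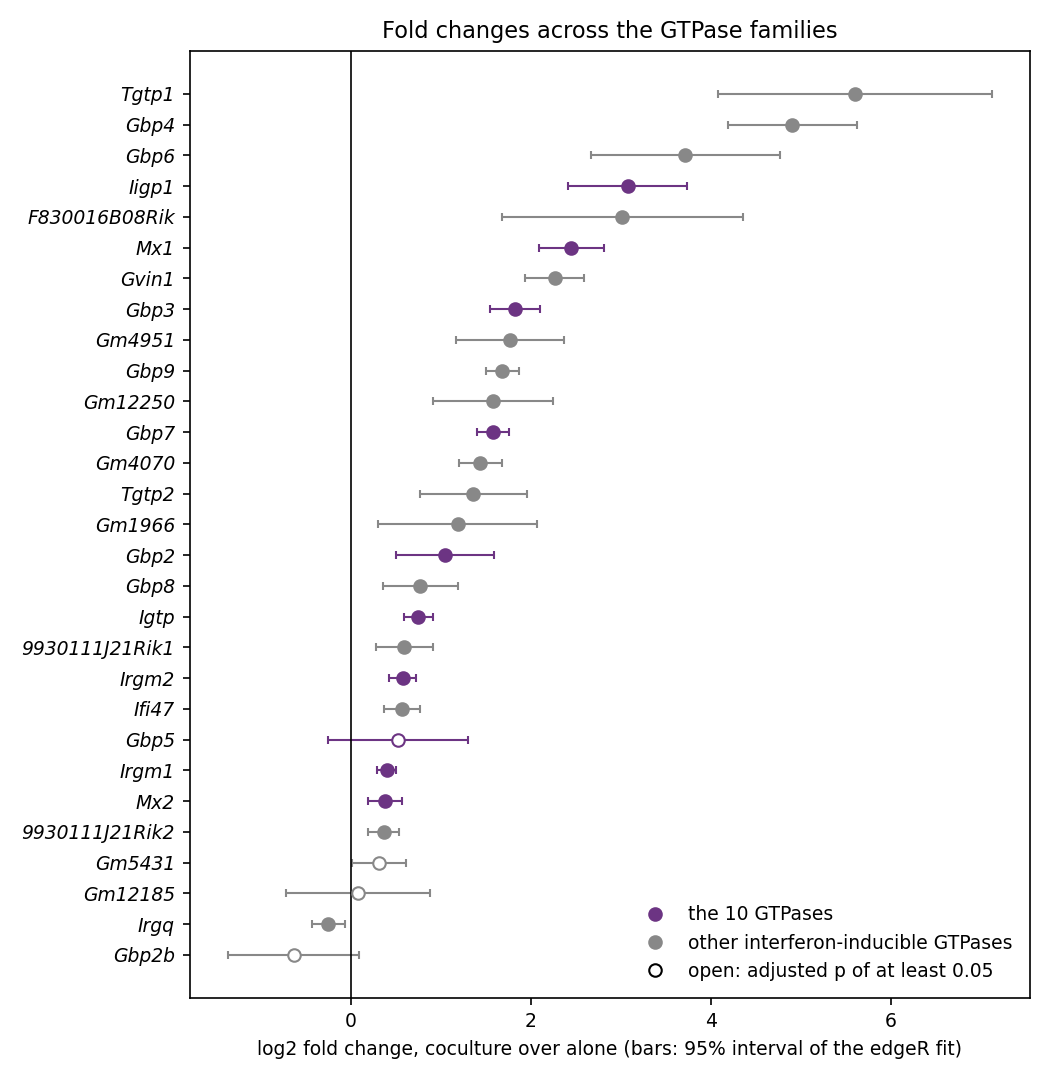
Log2 fold change of cocultured over lone cells with 95% intervals for the 10 GTPases (purple) and the 19 measured genes of the wider families (grey), open where the adjusted p was 0.05 or more. Most points lie right of 0, from 0.38 for Mx2 to 3.07 for Iigp1 among the called genes of the 10, and Gbp2b and Irgq lie left of it.

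Genes beside the GTPases on the chromosome were read as a contrast in place. The 3 nearest tested genes on each side of each of the 10, outside the GTPase families, came to 30 genes. Of these 8 rose and 4 fell. The share higher was 26.7%, where 21.7% of all genes tested were higher and 15.2% lower. The median log2 fold change of the 30 genes was 0.0192. Some risers, named after their values were seen, lay under the filter limit of 0.618 CPM alone. Ripk4, Bmpr1b and Slc27a6 had 0 CPM there and Tmprss2 a mean of 0.206 CPM, so a rise was the only call open to them. A like comparison takes the 24 flanking genes whose lone mean reached 1 CPM. Among those, 3 were called higher and 4 lower, beside 16.8% and 17.2% of all genes of that level. The span of Olfr56, another riser named after its values were seen, takes in the GTPase genes Tgtp1, Tgtp2 and Ifi47. It is thus no clean contrast in place. Of the 8 genes that rose, 3 had at least 1 CPM alone, and these were named after their values were seen. Smim3 beside Iigp1 had 25.7 ± 2.55 CPM in coculture and 8.97 ± 2.48 CPM alone (log2 1.51, SE 0.138, adjusted p = 1.53e-09). Slc12a2, also beside Iigp1, and Pkn2 beside the GBP cluster rose by less, with log2 fold changes of 0.29 and 0.22.

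**Figure D4:**
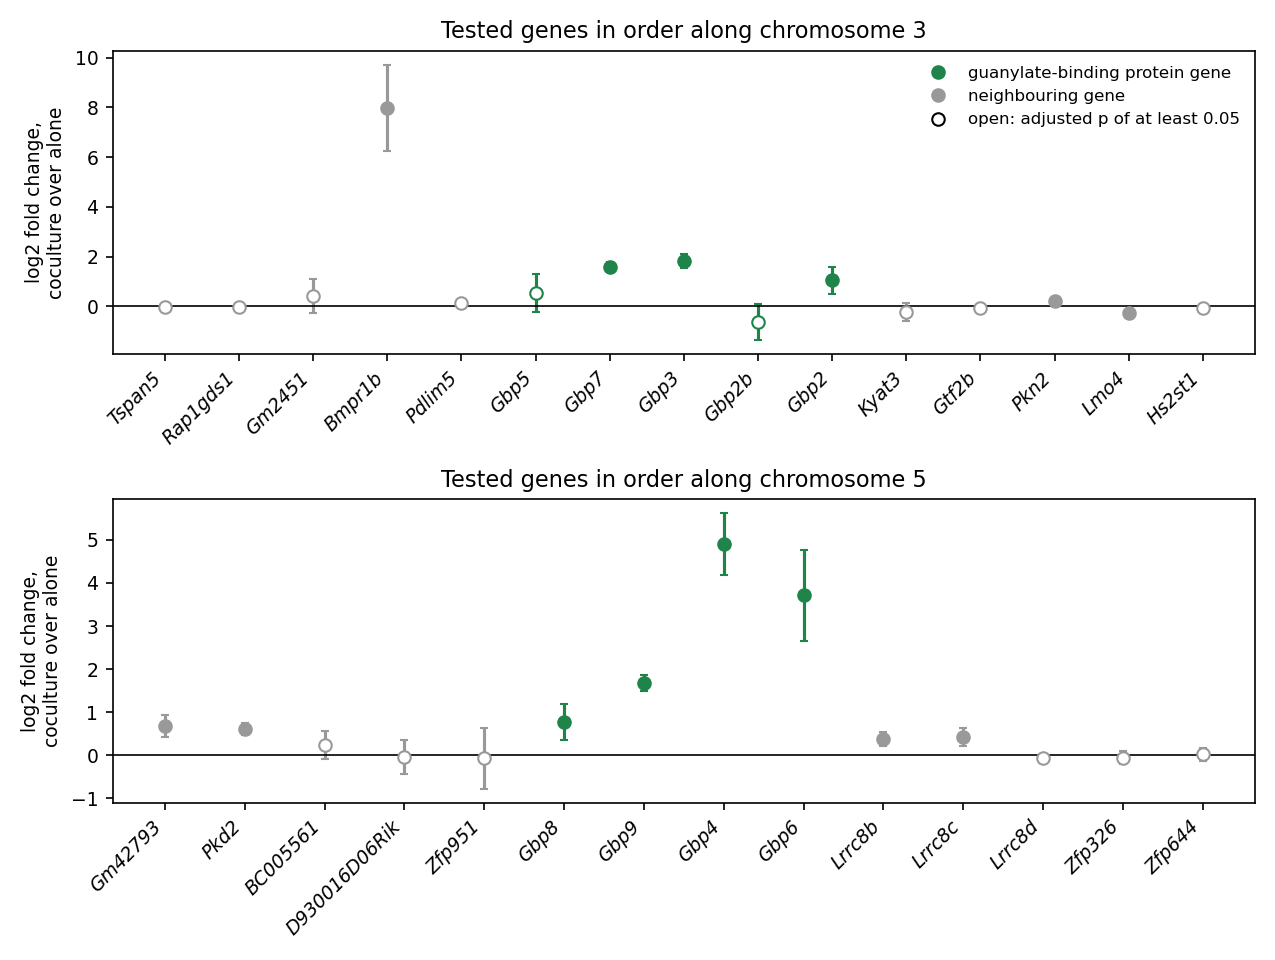
Log2 fold change of cocultured over lone cells with 95% intervals for the tested genes of the GBP clusters on chromosomes 3 and 5 and the 5 tested genes on each side, in genomic order. In the chromosome 3 cluster, log2 fold changes of Gbp7, Gbp3 and Gbp2 were 1.58, 1.83 and 1.05, with Gbp5 and Gbp2b not past the threshold. On chromosome 5 the annotations of Gbp8, Gbp9 and Gbp4 overlap on the same strand. The neighbour Bmpr1b lies highest on chromosome 3 and had 0 counts alone, so its fitted fold change is no bound.

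The dynamin superfamily also holds GTPases that shape membranes in all cells and are not interferon genes. Of 14 such genes 12 were measured, and their median log2 fold change was 0.0038. Of the 12, 3 rose and 2 fell, beside 21.7% and 15.2% of all genes tested. The 3 largest changes past the threshold follow. Ehd4, which rose, and Dnm1l, which fell, are named after their values were seen. Ehd2, a gene of caveolar membranes, rose 2.77-fold to 55.3 ± 1.46 CPM in coculture, against 20.03 ± 1.14 CPM alone (adjusted p = 1.63e-14). Atl3, an atlastin of the endoplasmic reticulum, fell 1.18-fold to 145 ± 8.18 CPM in coculture, against 171 ± 9.51 CPM alone (adjusted p = 0.000607). Mfn1, a mitochondrial fusion GTPase, rose 1.17-fold to 56.7 ± 0.417 CPM in coculture, against 48.4 ± 2.90 CPM alone (adjusted p = 0.00601).

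Transcripts of the interferons themselves were at or near 0 counts in every library. Of 21 interferon genes of types I, II and III, all 21 had 0 counts in the cocultured libraries. Alone, Ifnb1 had 0, 1 and 2 counts, Ifna13 had 1 count and Ifnk had 1 count over the libraries, and the other 18, among them Ifng, had none. At this depth 0 counts over the cocultured group allows up to 0.0639 CPM, a limit that covers counting error only, since PCR copies are not independent molecules. Of 12 markers of T cells, natural killer cells, B cells and plasmacytoid dendritic cells, 0 were measured, and their summed level was 0.118 to 0.383 CPM in coculture and 0.0576 to 0.206 CPM alone.

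Genes that carry the interferon signal were read from a list of 16 receptors and transducers, of which 7 rose and 2 fell (Ifnar2 and Tyk2, named after their values were seen). The median log2 fold change was 0.06, and over all genes tested 21.7% were higher and 15.2% lower. Stat2, part of the type I complex, rose 2.62-fold to 134 ± 1.74 CPM in coculture, against 51.0 ± 1.84 CPM alone (adjusted p = 3.55e-17). Irf7, an amplifier of type I interferon, rose 2.05-fold to 591 ± 5.57 CPM, against 288 ± 14.3 CPM alone (adjusted p = 1.71e-16). Ifnlr1, the receptor chain for type III interferon of epithelia, had 19, 13 and 40 counts in coculture and 0 alone, at least 24.8-fold higher against 3 counts over the lone group. It passed the filter through the cocultured libraries only, so a rise was the only call open to it. What part RNA of other cells has in its counts was not tested. Chosen after their values were seen, Jak2 rose 1.68-fold to 63.3 ± 1.75 CPM in coculture, against 37.7 ± 1.36 CPM alone (adjusted p = 5.39e-10), and Irf1 rose 1.55-fold to 32.8 ± 0.649 CPM, against 21.2 ± 3.48 CPM alone (adjusted p = 7.46e-06). Both genes serve interferon gamma signalling. The receptor chains for interferon gamma, also named after their values were seen, were not called. Ifngr1 had a log2 fold change of -0.02 (adjusted p = 0.861) and Ifngr2 of -0.06 (adjusted p = 0.425). Jak1 was not called either (log2 0.11, adjusted p = 0.0842).

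Genes that restrain the signal numbered 10. The median log2 fold change was 0.09, and 4 rose and 2 fell, where 21.7% and 15.2% of all genes tested did. Ptpn11, which rose, and Ptpn6 and Irf2bp1, which fell, are named after their values were seen. Socs1 rose 2.36-fold to 3.68 ± 1.23 CPM in coculture, against 1.56 ± 0.469 CPM alone (adjusted p = 0.00141). Socs3 rose 1.74-fold to 46.2 ± 4.83 CPM, against 26.7 ± 5.08 CPM alone (adjusted p = 5.57e-07). Usp18, which blocks the type I receptor, rose 1.41-fold to 197 ± 12.7 CPM, against 139.7 ± 11.6 CPM alone (adjusted p = 8.01e-08).

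**Figure D5:**
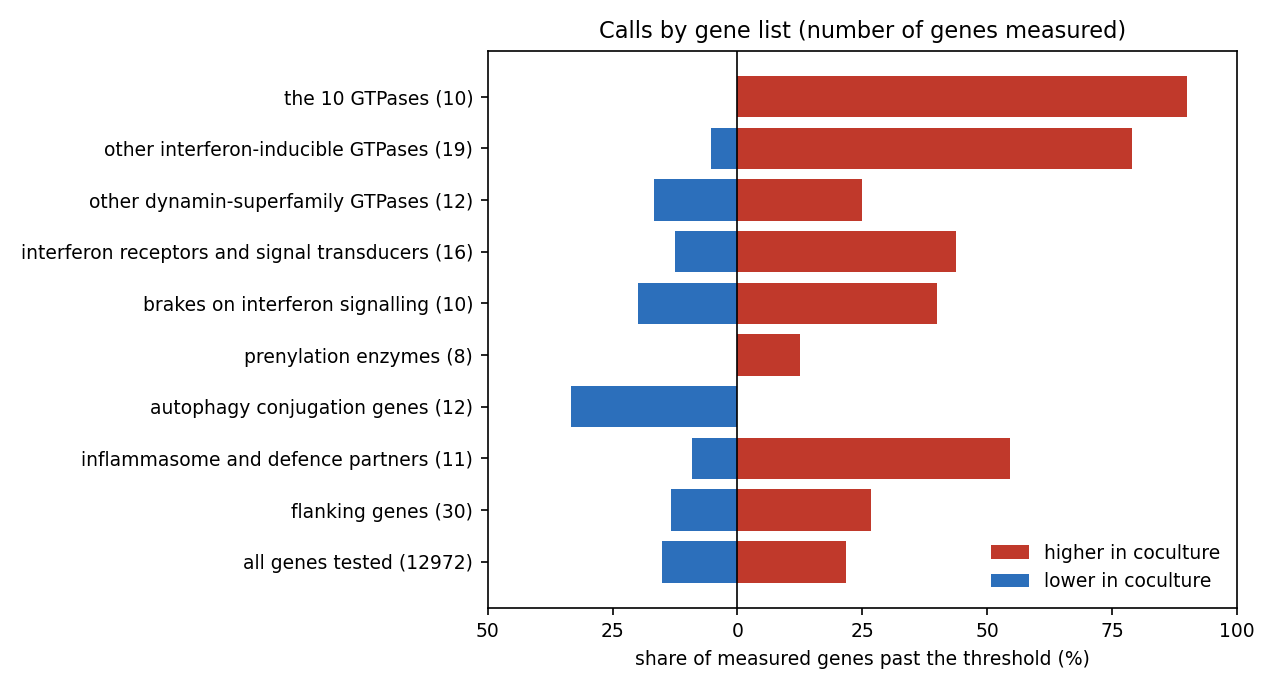
Share of the measured genes of each list that passed the threshold, higher in coculture to the right and lower to the left, with the number measured in brackets. The GTPase lists stand at 9 of 10 and 15 of 19 genes higher, and all genes tested at 21.7% higher and 15.2% lower. Of the genes higher, 1 and 4 passed the filter by their cocultured level only. In the second list Gm1966 passed with 1 lone library at the limit.

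GBPs such as Gbp2 and Gbp5 are anchored in membranes by prenylation. Of 8 prenylation genes 1 rose and 0 fell, beside 21.7% and 15.2% of all genes tested, at a median log2 fold change of 0.0069. The gene was Icmt, which methylates prenylated proteins, at 82.9 ± 0.521 CPM in coculture and 74.2 ± 3.08 CPM alone (1.12-fold, adjusted p = 0.0202), a call lost without lone replicate B (adjusted p = 0.124) or cocultured replicate B (0.0673). The autophagy conjugation machinery places IRG and GBP proteins on pathogen vacuoles. Of its 12 genes 0 rose and 4 fell, beside the same 21.7% and 15.2% of all genes, at a median log2 fold change of -0.09. The 4 were Gabarap, named after its values were seen, and the 3 genes that follow. Sqstm1, a cargo receptor, fell 1.21-fold to 457 ± 24.9 CPM in coculture, against 553 ± 9.20 CPM alone (adjusted p = 6.21e-06). Atg7, the activating enzyme, fell 1.15-fold to 53.2 ± 0.141 CPM, against 61.1 ± 1.51 CPM alone (adjusted p = 0.00947). Map1lc3a fell 1.53-fold to 2.49 ± 0.443 CPM, against 3.82 ± 0.123 CPM alone (adjusted p = 0.0396), and this call was lost without 5 of the 6 libraries in turn, at adjusted p values of 0.0625 to 0.131 (cocultured replicate C apart), and with the replicate letter as a block (0.0539).

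Of 12 inflammasome and defence genes that work with GBPs, 11 were measured, with a median log2 fold change of 0.17. Of these 6 rose and 1 fell, where 21.7% of all genes tested were higher and 15.2% lower. The gene that fell was Ninj1, named after its values were seen. Nlrc4, an inflammasome scaffold, rose 1.49-fold to 8.43 ± 0.415 CPM in coculture, against 5.67 ± 0.519 CPM alone (adjusted p = 0.00397). Trim21, a cytosolic antibody receptor, rose 1.43-fold to 17.6 ± 1.88 CPM, against 12.3 ± 0.543 CPM alone (adjusted p = 0.000732). Naip5, a flagellin sensor, was at 14.3 ± 0.242 CPM in coculture and 11.5 ± 0.968 CPM alone (1.24-fold, adjusted p = 0.0350), a call lost without each library but lone replicate B (adjusted p = 0.0550 to 0.0945). Among the macrophage markers, 5 of 12 rose and 4 fell, beside the same 21.7% and 15.2% of all genes. Fcgr1 was 2.25-fold and Itgam 1.86-fold higher, and Tyrobp was 1.24-fold lower. Fcgr1, an interferon-inducible Fc receptor gene, was at 226 ± 6.80 CPM in coculture and 101 ± 4.59 CPM alone.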

How the data were processed

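RNA of 6 libraries was poly-T selected and read in pairs, per the labels. The authors deposited raw counts per gene and FPKM values for the same libraries, per the file headers. Build mm10 and the tools HISAT2 (2.0.5), featureCounts (1.5.0-p3), edgeR (3.22.5) and DESeq2 (1.20.0) come from the submitters' processing notes, which state no roles. Strand setting and annotation are not given in the sources used here. Antisense or overlapping genes could therefore not be told apart, and paralogs may share reads. Columns of other samples numbered 0, as did rows without a gene.

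All deposited counts were fitted at once in edgeR 4.0.16 (R 4.3.3, quasi-likelihood, TMM scaling, filterByExpr, a group term). Benjamini-Hochberg adjustment covered every gene tested. The procedure was run on simulated counts with a constant dispersion and changes in well-counted genes only. It recovered 85.1% of changes of log2 0.5 and 100% of those of log2 1 and 2. Of its calls 5.47% were unchanged genes. Real spread differs by gene, and genes as low as Iigp1 were not covered. The SE of a log2 fold change is its size divided by the square root of its F value. Replicate pairs differed by more than sampling noise (chi-square per degree of freedom 3.095 to 4.83). DESeq2 1.42.0 and limma 3.58.1 served as alternatives. All 10 members are named, and of each other list up to 3 called genes of at least 1 CPM with the largest change. Members, lists and rules were chosen with earlier results of these data known. The values of 1 gene of the list of receptors and transducers are not reported here.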

Additional observations from a re-analysis of the deposited data

How the results depend on the processing

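The results were recomputed under 18 alternatives: 2 other scalings, 2 filters, 2 gene subsets, a replicate block, 6 fits that each leave out a library, the DESeq2 Wald test, limma-voom and 3 limma fits on log2(FPKM + pseudocount), whose pseudocounts understate changes of low genes. The same 9 GTPases were called higher in every fit that measured them, with 8 of 9 measured among protein-coding genes or genes with at least 1 CPM alone and 8 of 8 with a mean FPKM of at least 1. For Iigp1 these calls are a description only, since it passed the edgeR filter through the cocultured libraries only. Deviations from the group mean correlated across genes at 0.001, 0.02 and 0.035 for equal letters and at -0.038 to 0.018 for unlike ones. With 3 libraries a group, such values cannot tell whether the letters pair the libraries. With the replicate block 9 members stayed higher and 0 lower, and the brakes on signalling that fell numbered 1. Without single libraries the log2 change ranged from 2.37 to 2.56 for Mx1, 0.31 to 0.44 for Mx2, 0.91 to 1.26 for Gbp2, 1.69 to 1.92 for Gbp3, 0.23 to 1.07 for Gbp5, 1.54 to 1.62 for Gbp7, 0.34 to 0.43 for Irgm1, 0.53 to 0.62 for Irgm2, 0.69 to 0.82 for Igtp and 2.98 to 3.21 for Iigp1.

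Other counts moved by over 1.5 times, and the cause was not tested beyond the smaller gene sets. With a mean FPKM of at least 1, genes higher numbered 1707 (2819 in the edgeR fit), other interferon-inducible GTPases higher 7, brakes higher 2, flanking genes 3 higher and 0 lower, and epithelial markers 7. With at least 1 CPM alone, epithelial and mesenchymal markers higher numbered 0, flanking genes 3 higher and 2 lower, prenylation enzymes higher 2, and brakes and receptors lower 1 each. Lists with few genes lower in the edgeR fit changed as follows. Other interferon-inducible GTPases ranged from 0 to 1 without single libraries and had 0 in the DESeq2 Wald test, and in the FPKM fits with all genes the 1 was Gbp2b in place of Irgq (adjusted p = 0.0523 and 0.0561). Dynamin-superfamily genes had 1 in the 3 FPKM fits and 1 to 2 without single libraries. Receptors and transducers had 1 without a filter, in the DESeq2 Wald test and in the FPKM fits, and 1 to 2 without single libraries. Brakes had 1 with at least 1 CPM in 3 libraries, in the DESeq2 Wald test, limma-voom and the FPKM fits, and 1 to 2 without single libraries. Autophagy genes had 2 to 3, inflammasome and defence genes 1 to 2 and flanking genes 0 to 3 without single libraries, and flanking genes had 2 in the DESeq2 Wald test and 1 in the FPKM fits with all genes. Prenylation enzymes higher numbered 2 with DESeq2 size factors, with at least 1 CPM in 3 libraries and among protein-coding genes, and 0 to 2 without single libraries. Macrophage markers higher numbered 3 in the FPKM fits with all genes. Gbp2b passed the threshold only in the FPKM fits with all genes (adjusted p = 0.0437 and 0.0374). Gbp5, Gbp2 and Iigp1 rest on under 100 counts per library, which limits their precision.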
